A study of Homo sapiens with 18 samples.

Results

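RET, MXRA5, ECH1, MED29 and TNS3 were the 5 genes examined, of 26485 genes listed in each of 2 tables of RNA sequencing values from PANC-1 cells, an established epithelial cell line from a human pancreatic ductal adenocarcinoma. They were chosen by their C16 values, since their transcripts were much lower after C16, an inhibitor of protein kinase R (PKR). The C16 values below are therefore a description of that choice and carry no test. Their values after PKR knockdown are not part of that rule and were tested, but the genes were picked when results of both tables were known. The C16 table held 3 libraries of cells given the solvent DMSO, 3 given 400 nM C16 and 3 given 800 nM C16, all 72 h after treatment. The siRNA table held 3 libraries each of cells given control siRNA and of cells given 1 of 2 siRNAs against PKR (PKR siRNA 1 and PKR siRNA 2), also collected after 72 h. All 18 libraries came from the same line, no genetic change is labelled in any group, and nothing in the labels says whether the 3 libraries of a group were separate cultures, so the p-values below measure only the spread between libraries. The siRNA libraries are labelled Run1 and the C16 libraries Run2, with no word on what a run was, so a difference between runs cannot be told apart from one between siRNA and C16. No test was run across the tables, and levels set side by side across them are a description.

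PKR, encoded by EIF2AK2, is an interferon-induced kinase that binds double-stranded RNA and phosphorylates the translation initiation factor eIF2alpha. RET is a receptor tyrosine kinase that answers ligands of the GDNF family only together with a GFR-alpha co-receptor, and it is known for its roles in neural crest cells and for activating changes in thyroid cancer. MXRA5 is a secreted proteoglycan linked to matrix remodelling, and TNS3 is a tensin, an adaptor that ties integrins to actin at adhesion sites. ECH1 is a dienoyl-CoA isomerase that takes part in the breakdown of unsaturated fatty acids, and MED29 is a subunit of Mediator, the complex that links transcription factors to RNA polymerase II. The 5 genes belong to no common pathway, so each is set beside the genes of its own.

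In hg38, RET lay on the plus strand of chromosome 10 at 43077069 to 43130349 and MXRA5 on the minus strand of chromosome X at 3308566 to 3346643. ECH1 was on the minus strand of chromosome 19 at 38815422 to 38831857, and MED29 was on the plus strand of the same chromosome at 39391323 to 39400563. TNS3 lay on the minus strand of chromosome 7 at 47275154 to 47582144. The tables counted reads over the exons of each gene, 20 for RET, 7 for MXRA5, 10 for ECH1, 4 for MED29 and 31 for TNS3. Of the exon bases of ECH1, 31.8% were shared with a gene model on the same strand, ENSG00000268083 in GENCODE release 44. Reads of these bases cannot be told apart between ECH1 and that model, so the level of ECH1 is uncertain to that extent. Among the genes counted here, none overlapped ECH1, and the nearest, LGALS4, lay 2321 bases away. The exons of the other 4 genes overlapped no other gene.

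The stretch before the start of a gene holds its core promoter. It is printed here for the members that were lowered together, as listed by RefSeq for GRCh38.p14, which had an entry for 4 of the 5 genes. Capitals mark letters of 6 motifs searched on both strands, namely the TATA box TATAAA, the GC box GGGCGG, the CCAAT box CCAAT, the cyclic AMP response element TGACGTCA, the AP-1 site TGANTCA and the E-box CACGTG. Only bases upstream of the exons in the tables are shown, 5′ to 3′ on the strand of the gene. They are, in order, chr10:43076819-43077068, chrX:3346653-3346902, chr19:39391196-39391322 and chr7:47582145-47582361.
RET: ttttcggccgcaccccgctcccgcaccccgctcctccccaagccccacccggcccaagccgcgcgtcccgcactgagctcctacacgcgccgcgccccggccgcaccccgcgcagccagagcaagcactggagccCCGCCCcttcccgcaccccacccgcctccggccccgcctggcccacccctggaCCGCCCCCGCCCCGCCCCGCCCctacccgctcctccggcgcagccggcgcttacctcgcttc
MXRA5: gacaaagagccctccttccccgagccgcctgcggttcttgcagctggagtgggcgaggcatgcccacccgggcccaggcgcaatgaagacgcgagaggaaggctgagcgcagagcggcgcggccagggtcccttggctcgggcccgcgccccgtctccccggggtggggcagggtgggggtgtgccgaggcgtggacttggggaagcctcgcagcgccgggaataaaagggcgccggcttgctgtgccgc
MED29: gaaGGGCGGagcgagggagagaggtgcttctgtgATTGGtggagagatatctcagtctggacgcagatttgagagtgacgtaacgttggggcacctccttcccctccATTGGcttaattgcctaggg
TNS3: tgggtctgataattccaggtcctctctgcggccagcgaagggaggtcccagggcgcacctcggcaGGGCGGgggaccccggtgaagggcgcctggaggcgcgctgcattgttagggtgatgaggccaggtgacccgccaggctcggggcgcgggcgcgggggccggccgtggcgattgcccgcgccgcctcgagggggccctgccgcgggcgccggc

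The 4 stretches had a GC content of 79.6% for RET, 76.0% for TNS3, 72.4% for MXRA5 and 55.1% for MED29. RET held 5 GC boxes, of which 4 overlap or abut in a run, while TNS3 and MED29 each held 1 and MXRA5 held none. A GC box was found in 42.6% of the 35116 RefSeq promoters searched over 250 upstream bases. MED29 also held 2 CCAAT boxes, read from the opposite strand, a motif found in 32.0% of all promoters. No motif was present in all 4 stretches, and none of the 4 held the letters of a TATA box (10.7% of all promoters), a cyclic AMP response element (1.6%), an AP-1 site (6.6%) or an E-box (6.3%). The MED29 stretch is short because it is the whole interval of 127 bases between the start of MED29 and that of PAF1, which runs the other way.

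Depth was modest, with 1512940 to 1873906 reads on genes per siRNA library and 894145 to 1474308 per C16 library, and it limits RET in particular. The values are counts normalized by the authors with the TMM method, written below as normalized counts. Transcripts of EIF2AK2, the target of both siRNAs, were at 95.5, 93.5 and 103 normalized counts in the control siRNA libraries. They were at 10.00, 13.6 and 9.65 after PKR siRNA 1 and at 7.96, 8.58 and 9.40 after PKR siRNA 2, as the labels say. With C16, which acts on the kinase, EIF2AK2 was at 51.4, 48.7 and 49.6 at 800 nM against 45.7, 49.5 and 54.1 in DMSO. Of the epithelial keratins, KRT8 was at 1246 to 5105 and KRT18 at 977 to 2003 over all libraries, whereas KRT7 was low, at 20.5 at most. The leukocyte gene PTPRC, the fibroblast genes DCN and COL1A2 and the neuroendocrine gene INSM1 were at 0 in every library. Endothelial markers were at 1.07 at most. Other genes of the same lists were present. Over all libraries, the leukocyte marker CD68 was at 51.0 to 273. The fibroblast markers COL1A1 and COL3A1 were at 21.8 to 161 and 1.11 to 30.5. The neuroendocrine markers ENO2 and SYP were at 23.3 to 151 and 6.68 to 36.9.

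RET and MXRA5 kept the smallest share of their transcripts with C16. For RET, the normalized counts were 162, 149 and 187 in DMSO, 55.3, 27.7 and 46.8 at 400 nM and 17.1, 21.9 and 9.54 at 800 nM. Every 400 nM library was below every DMSO library and every 800 nM library below every 400 nM library. The means were 166 ± 19.2, 43.3 ± 14.2 and 16.2 ± 6.25 (SD, n = 3), so that 26.1% of the DMSO level was left at 400 nM and 9.78% at 800 nM. In bulk samples such as these, fewer cells that make a transcript and less of it per cell cannot be told apart. The log2 fold change, on the scale of log2(normalized count + 1), was -1.96 at 400 nM and -3.34 at 800 nM, with an SE of 0.20 for both. RET ranked 4th from the lowest among the 9963 genes tested at 800 nM and 8th at 400 nM.

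MXRA5 followed closely. It was at 112, 126 and 152 normalized counts in DMSO, at 38.3, 26.5 and 28.7 at 400 nM and at 14.1, 11.0 and 11.5 at 800 nM, again with no overlap between groups. The levels left were 24.0% and 9.38% of the DMSO mean, and the log2 fold changes were -2.03 and -3.31 with an SE of 0.20. RET and MXRA5 thus differed at 800 nM by less than the SE of either. MXRA5 took the 5th place from the lowest at 800 nM and the 7th at 400 nM.

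ECH1, MED29 and TNS3, which were more abundant, kept a larger share. ECH1 had 1015, 975 and 1007 normalized counts in DMSO, 551, 506 and 519 at 400 nM and 288, 314 and 295 at 800 nM. Its groups were narrow and far apart, and 52.6% and 29.9% of the DMSO mean were left, with log2 fold changes of -0.93 and -1.74 (SE 0.07). TNS3 was at 846, 885 and 1016 in DMSO, 461, 481 and 505 at 400 nM and 277, 253 and 333 at 800 nM. It kept 52.7% and 31.4%, at log2 fold changes of -0.92 and -1.67 (SE 0.08), close to those of ECH1. MED29 was the least affected, with 1240, 1262 and 1312 normalized counts in DMSO, 816, 752 and 783 at 400 nM and 498, 491 and 516 at 800 nM. That left 61.6% and 39.5%, at log2 fold changes of -0.70 and -1.34 (SE 0.06), and the value at 800 nM lay apart from those of ECH1 and TNS3 by more than their SEs. Among the 9963 genes, ECH1, TNS3 and MED29 stood at places 106, 119 and 259 from the lowest at 800 nM.

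All 5 genes showed the full order of DMSO over 400 nM over 800 nM in every library, an order that 5.71% of all tested genes showed and that follows from the choice of the genes. For comparison, 14.1% of all tested genes were called lower at 800 nM and 5.45% at 400 nM, a call being an adjusted p under 0.05 and a change over 1.5-fold. The dose steps differed in size between the genes, whereas the share of the fall reached at 400 nM differed little. The log2 fold change at 400 nM made up 58.7% of that at 800 nM for RET, 61.4% for MXRA5, 53.4% for ECH1, 52.1% for MED29 and 55.1% for TNS3. The further change from 400 to 800 nM was -1.38 for RET, -1.28 for MXRA5, -0.81 for ECH1, -0.75 for TNS3 and -0.64 for MED29. Both doses share the DMSO libraries, so the agreement between them is in part built in.

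**Figure D1:**
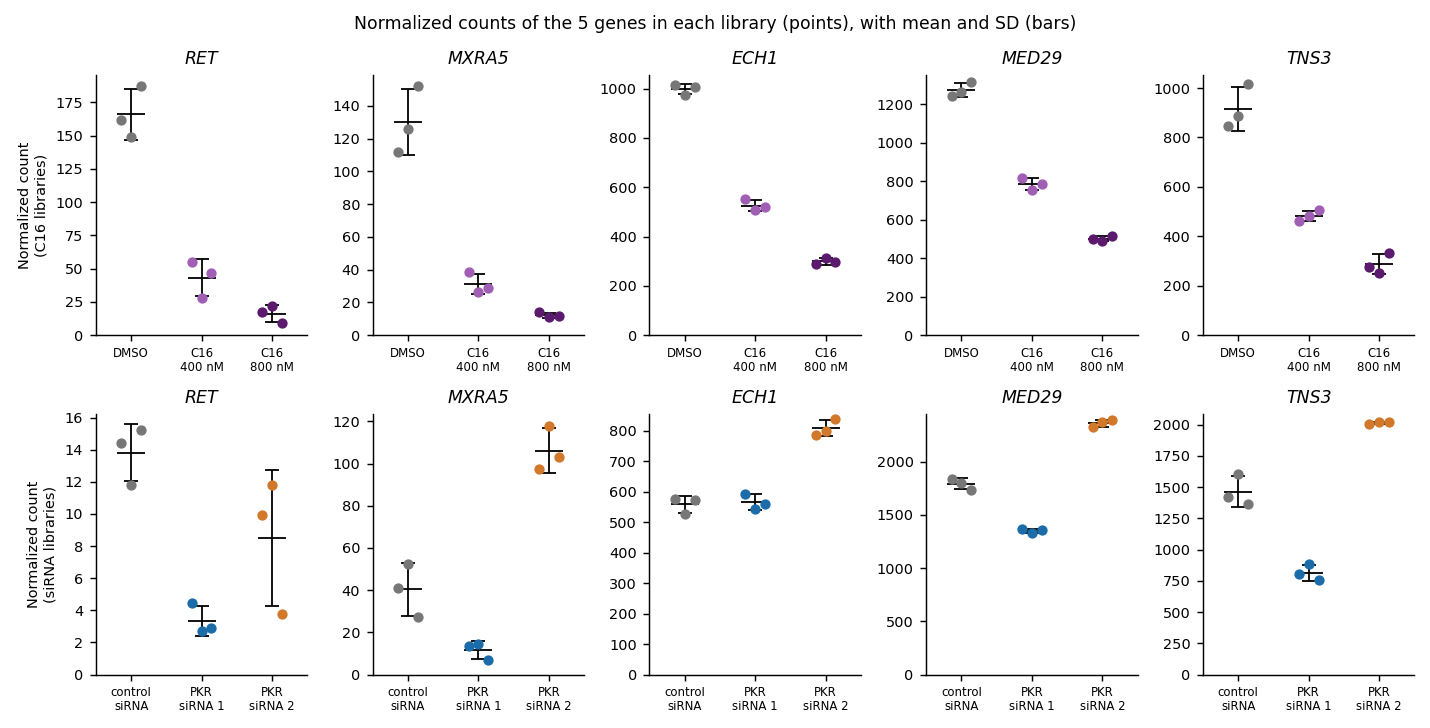
Normalized count (linear axis from 0) of each gene in every library, C16 libraries in the upper row and siRNA libraries in the lower row; points are libraries, and bars are the mean and SD of 3 libraries. In the upper row each gene steps down from DMSO to 400 nM to 800 nM without overlap, whereas in the lower row MXRA5, MED29 and TNS3 lie below control with PKR siRNA 1 and above control with PKR siRNA 2.

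Per kilobase of exon, the scale on which genes can be compared, the DMSO levels ran from ECH1 at 791 ± 16.8 over MED29 at 356 ± 10.4, TNS3 at 120 ± 11.7 and RET at 25.9 ± 3.01 to MXRA5 at 13.3 ± 2.10 normalized counts per kb (SD, n = 3). Each neighbour in this order was separated by more than its SD. At 800 nM the order was the same, with ECH1 at 237 ± 10.7, MED29 at 141 ± 3.62, TNS3 at 37.8 ± 5.36, RET at 2.53 ± 0.977 and MXRA5 at 1.24 ± 0.173 per kb. Under control siRNA, in the other table, the order differed. MED29 was highest at 502 ± 14.2 per kb and ECH1 followed at 442 ± 22.4, and MXRA5 at 4.13 ± 1.29 was above RET at 2.16 ± 0.274. RET was also the gene whose level differed most between the controls of the 2 tables, with 7.97 ± 1.02 RPM (scaled to all reads on genes) under control siRNA and 148 ± 16.5 RPM under DMSO. The tables were normalized separately and differ in run and in handling of the cells, so this difference was not tested.

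Knockdown of PKR was then examined, to ask whether loss of the kinase itself changed the same genes. The values depended on the siRNA. MXRA5, TNS3 and MED29 were lower with PKR siRNA 1 and higher with PKR siRNA 2, although both siRNAs lowered EIF2AK2, to 11.4% and 8.87% of control. The log2 fold changes of EIF2AK2 were -3.04 and -3.35, and their difference of -0.31 (SE 0.25, adjusted p = 0.282) did not pass. For these 3 genes every PKR siRNA 1 library lay below, and every PKR siRNA 2 library above, every control library, a pattern found in 6.21% of all tested genes and in 3 of the 4 members that could be tested.

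MXRA5 changed most. It was at 41.1, 52.6 and 27.5 normalized counts in control siRNA libraries, 13.3, 14.5 and 6.75 in those of PKR siRNA 1 and 97.5, 118 and 103 in those of PKR siRNA 2. It fell by 1.74 on the log2 scale with PKR siRNA 1 (SE 0.21, limma adjusted p = 9.07e-11) and rose by 1.42 with PKR siRNA 2 (adjusted p = 3.64e-08). Both passed the thresholds, as did 12.6% of all tested genes downward with PKR siRNA 1 and 10.8% upward with PKR siRNA 2. PKR siRNA 2 exceeded PKR siRNA 1 by 3.16 on the log2 scale (adjusted p = 1.67e-22), a direction in which 16.4% of all tested genes were called. Only 3 libraries stood in each group, for which the smallest p of an exact permutation test (two-sided) is 0.1, and the exact p was 0.100 for each of these comparisons.

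TNS3 was at 1424, 1604 and 1365 normalized counts with control siRNA and at 808, 884 and 755 with PKR siRNA 1, a fall by 0.84 on the log2 scale (SE 0.05, adjusted p = 5.38e-24). With PKR siRNA 2 it was at 2008, 2020 and 2020, which is 0.46 higher (adjusted p = 4.39e-12) but under the 1.5-fold threshold. The 3 PKR siRNA 2 libraries were nearly equal. The difference between the siRNAs was 1.31 (SE 0.05, adjusted p = 6.14e-36) and passed.

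MED29 had 1836, 1801 and 1736 normalized counts under control siRNA, 1366, 1329 and 1355 under PKR siRNA 1 and 2324, 2374 and 2387 under PKR siRNA 2. The groups were well apart, yet neither change reached 1.5-fold, at -0.41 (SE 0.04, adjusted p = 2.11e-12) and 0.40 (adjusted p = 3.53e-12). The siRNAs differed from each other by 0.81 (adjusted p = 3.29e-27), past both thresholds.

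ECH1 was not called with either siRNA. Its normalized counts of 593, 544 and 559 with PKR siRNA 1 overlapped those of 576, 525 and 573 with control siRNA, a log2 difference of 0.02 (SE 0.06, adjusted p = 0.823). With PKR siRNA 2 it was at 786, 800 and 839, above every control library by a log2 fold change of 0.53 (SE 0.06, adjusted p = 4.33e-12) that stayed under 1.5-fold. PKR siRNA 2 exceeded PKR siRNA 1 by 0.52 (adjusted p = 1.02e-11), also under the fold threshold.

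RET was scarce in the siRNA libraries, with a mean of 8.55 normalized counts, and fell short of the minimum mean of 10 set for testing. It was at 14.4, 11.8 and 15.2 under control siRNA, at 4.44, 2.72 and 2.89 under PKR siRNA 1 and at 9.95, 11.8 and 3.76 under PKR siRNA 2. These values rest on 41 reads in the 3 control libraries and 10 reads in the 3 PKR siRNA 1 libraries. All PKR siRNA 1 libraries were below all control libraries, with a log2 difference of -1.78 and an exact permutation p of 0.100, and a limma fit without the minimum gave an adjusted p of 0.0437. The PKR siRNA 2 libraries spread widely, and the highest equalled the lowest control library to 3 digits, with a log2 difference of -0.75 (adjusted p = 0.419 in that fit). Without PKR siRNA 2 replicate 3 the difference was -0.31. A rise or fall of RET with PKR siRNA 2 was thus not detectable at this depth.

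**Figure D2:**
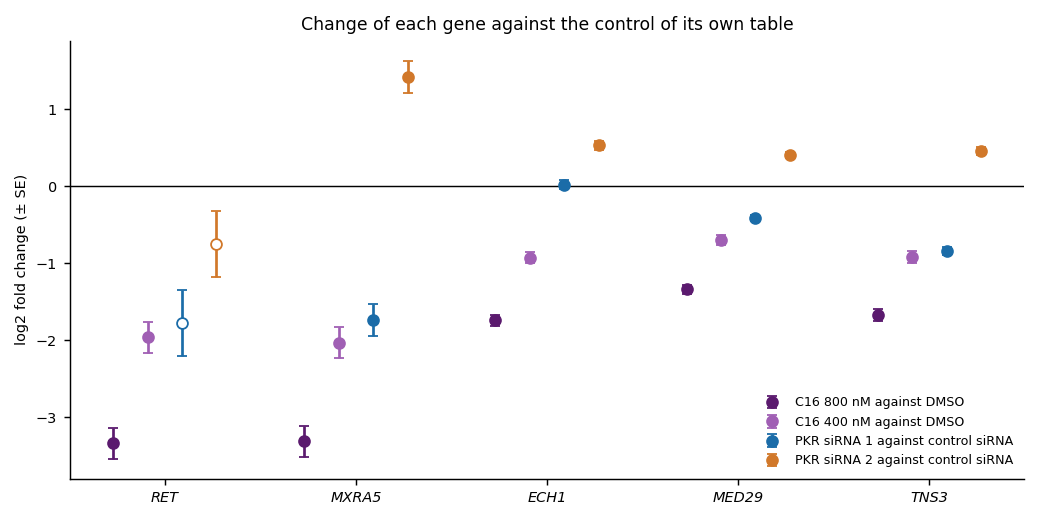
Log2 fold change of each gene against the control of its own table, with SE (vertical axis), for 800 nM C16, 400 nM C16, PKR siRNA 1 and PKR siRNA 2; open symbols mark RET in the siRNA table, which was under the minimum mean. C16 values are below 0 for all 5 genes and lower at 800 than at 400 nM, while the PKR siRNA 2 values of MXRA5, ECH1, MED29 and TNS3 are above 0.

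Marker lists moved between the siRNA groups as well. The summed level of 6 epithelial markers was 5358 to 5451 under control siRNA. It was 3052 to 3280 under PKR siRNA 1 and 9586 to 10233 under PKR siRNA 2, in the directions of MXRA5, MED29 and TNS3. The epithelial sum was carried by KRT8, KRT18 and KRT19, with medians of 2507, 1523 and 1206 over the siRNA libraries. KRT7, EPCAM and CDH1 had medians of 9.98, 11.9 and 17.5, so the sum does not show their direction. All 6 had a mean of at least 10 under control siRNA, but only 5 did under PKR siRNA 2. The sum of 5 fibroblast markers was 84.2 to 117, 26.3 to 32.2 and 130 to 139 in the same groups, carried by the collagen gene COL1A1, with DCN and COL1A2 at 0. In the C16 table the epithelial sum lay between 7171 and 7572 in DMSO and between 5172 and 5685 at 800 nM, and the fibroblast sum between 149 and 184 and between 80.2 and 117. The leukocyte sum, all but CD68 of it at or near 0, was 52.4 to 62.2 in DMSO and 104 to 127 at 800 nM, and the neuroendocrine sum overlapped between DMSO (70.1 to 71.4) and 800 nM (56.3 to 76.7). The part of such shifts in the results for the 5 genes was not tested.

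RET was next set beside the genes it works with. Of 10 ligands and co-receptors, GDF15, a stress-induced cytokine that signals through GFRAL and RET, was the only gene above the minimum mean. GDNF, GFRA1 and GFRA4 were at 0 in all 18 libraries, GFRAL reached 0.972 at most, and NRTN, ARTN, PSPN, GFRA2 and GFRA3 stayed at or under 5.77. GDF15 was at 80.6, 100.0 and 80.7 normalized counts in DMSO, 374, 321 and 392 at 400 nM and 248, 306 and 225 at 800 nM. It thus rose while RET was low, by 2.05 at 400 nM (adjusted p = 1.85e-24) and 1.56 at 800 nM (adjusted p = 1.29e-19), where 7.08% and 11.6% of all tested genes were called up. With the siRNAs it fell by 1.61 with PKR siRNA 1 (adjusted p = 5.46e-30) and fell by 0.79 with PKR siRNA 2 (adjusted p = 5.57e-14).

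The listed adaptors and signal partners of RET, which include phosphatases, ubiquitin ligases and a sorting receptor, did not follow it down as a set. Of 31 such genes, 21 were tested in the C16 table. At 800 nM 5 were called up (23.8% against 11.6% of all genes) and 2 down (9.52% against 14.1%). The median log2 fold change was 0.26 against 0.00 over all genes. The adaptor GAB2 rose by 1.31 (adjusted p = 1.49e-09), the phosphatase PTPRF by 0.81, the sorting receptor SORL1 by 0.74 and the ubiquitin ligase CBL by 0.68. DOK1, another docking protein, fell by 1.05 (adjusted p = 0.0102) and the phosphatase PTPRJ fell by 0.61. With PKR siRNA 1, 4 of 22 tested were called up (18.2% against 8.53% of all genes) and 6 down (27.3% against 12.6%). Among the latter was SORL1, which fell by 2.82 (adjusted p = 9.55e-40). PKR siRNA 2 gave 4 up (18.2% against 10.8% of all genes) and 4 down (18.2% against 12.8%), and SORL1 again fell, by 2.29.

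MXRA5 was compared with other matrix remodelling genes, of which 37 were listed and most were too low to test. At 800 nM C16, 4 of 15 tested were called down (26.7% against 14.1% of all genes) and none up (against 11.6%). The median log2 fold change was 0.00, as over all genes. MXRA8, a membrane protein also named for matrix remodelling, fell by 1.28 (SE 0.13, adjusted p = 7.10e-13). The others were the protease ADAMTS15 (log2 fold change -1.28), the lysyl oxidase LOXL1 (-0.97) and the metalloproteinase MMP17 (-0.59). With PKR siRNA 1, 10 of 18 tested were called down and none up, or 55.6% against 12.6% of all genes. They were led by MMP1 (-1.91), PXDN (-1.76), ADAMTS15 (-1.71) and MMP17 (-1.30). PKR siRNA 2 split the list, with 6 up (33.3% against 10.8% of all genes), led by MXRA8 at 2.72, ADAMTS1 at 2.67, PLOD2 at 1.49 and MMP15 at 1.43, and 4 down (22.2% against 12.8%), MMP1, TIMP1, PXDN and MMP2. MXRA8 was at 137, 160 and 156 normalized counts in DMSO and 67.6, 67.0 and 51.5 at 800 nM, and at 37.0, 30.1 and 37.0 under control siRNA and 228, 254 and 219 under PKR siRNA 2. With PKR siRNA 1 MXRA8 was at 46.7, 45.4 and 36.7, not called (adjusted p = 0.0815). Called down with PKR siRNA 1 and up with PKR siRNA 2, as MXRA5 was, were MXRA7 (-1.01 and 0.99), MMP14 (-0.79 and 0.84) and MMP15 (-0.62 and 1.43). They were picked out after the values were seen, and the share of all genes with both calls is not given. At 800 nM these 3 genes were at -0.00, -0.46 and 0.12, none called.

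ECH1 acts in fatty acid oxidation, and 9 of 33 tested genes of that pathway were called down at 800 nM and none up, or 27.3% against 14.1% of all genes, with a median log2 fold change of -0.27. ACADSB, which oxidizes short branched acyl-CoA, and DECR2, the peroxisomal dienoyl-CoA reductase, both fell by 1.44 (adjusted p = 3.11e-07 and 1.04e-08). CRAT, the carnitine acetyltransferase, fell by 1.20 and ETFB, a subunit of the electron transfer flavoprotein, fell by 0.91. DECR1, the mitochondrial reductase that acts beside ECH1 on unsaturated fatty acids, fell by 0.73 (adjusted p = 1.86e-04). The isomerase ECI1 was at -0.36 and ECI2 at 0.02, neither called. At 400 nM, 4 genes were called down and none up, or 12.1% down against 5.45%. PKR siRNA 1 gave 2 up and 7 down of 35, where 8.53% and 12.6% of all genes were called, led by ACADVL at 1.21 and EHHADH at -1.05. PKR siRNA 2 gave 6 up (17.1% against 10.8%) and none down (against 12.8%), led by ACADSB at 1.16, ACADM at 0.96, HADHB at 0.91 and CPT2 at 0.88.

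Of the other Mediator subunits, 29 were tested at 800 nM, of which 4 (13.8% against 14.1%) were called down, MED12 (-1.05), CDK19 (-0.89), MED16 (-0.85) and MED21 (-0.71), and 2 (6.90% against 11.6%) were called up, CCNC (0.85) and CDK8 (0.69). MED12, CDK19, CCNC and CDK8 belong to the kinase module of the complex and thus went both ways. The median log2 fold change was -0.15, beside -1.34 for MED29. PKR siRNA 1, which lowered MED29, called 5 of 32 subunits up (15.6% against 8.53%) and 1 down (3.12% against 12.6%), MED17. PKR siRNA 2 called 3 up (9.38% against 10.8%), led by MED13L at 0.96, and 2 down (6.25% against 12.8%), MED12L and CDK19.

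Among the tensins and integrin partners, TNS2, a paralog of TNS3, was at 49.6, 43.8 and 57.1 normalized counts in DMSO, 20.2, 20.8 and 19.1 at 400 nM and 12.1, 13.4 and 8.59 at 800 nM. It fell by 2.06 at 800 nM (SE 0.24, adjusted p = 2.35e-10). In the siRNA table it was at 31.8, 29.0 and 22.8 under control siRNA, 13.3, 17.2 and 17.4 under PKR siRNA 1 and 54.7, 75.1 and 67.7 under PKR siRNA 2. It thus fell by 0.76 with PKR siRNA 1 (adjusted p = 0.00207) and rose by 1.21 with PKR siRNA 2 (adjusted p = 1.35e-06), in the directions of TNS3. TNS1 and TNS4 were close to 0 throughout. KANK2, an adaptor that binds talin, was at -0.90 with PKR siRNA 1 and 0.68 with PKR siRNA 2, both called, and at -0.48 at 800 nM (adjusted p = 3.05e-04), under the fold threshold. The integrin ITGB3 was at -1.74 at 800 nM and 1.37 with PKR siRNA 2, both called, and at 0.13 with PKR siRNA 1, not called. Of 21 tested at 800 nM, 4 were called up (STARD13, ITGA5, TLN2 and ZYX) and 2 down (TNS2 and ITGB3), where 11.6% and 14.1% of all genes were. ZYX, which encodes the adhesion protein zyxin, rose by 0.76 with C16 but fell by 0.83 with PKR siRNA 1 and fell by 1.71 with PKR siRNA 2. The list as a whole did not follow TNS3 up with PKR siRNA 2. Of 22 tested, 4 were called up (18.2% against 10.8% of all genes) and 5 down (22.7% against 12.8%), with a median of -0.26. Those down were led by ZYX, TLN2 (-1.19), PXN (-0.82) and ITGA5 (-0.81). PKR siRNA 1 gave 1 up (4.55% against 8.53%) and 4 down (18.2% against 12.6%), with a median of -0.21.

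**Figure D3:**
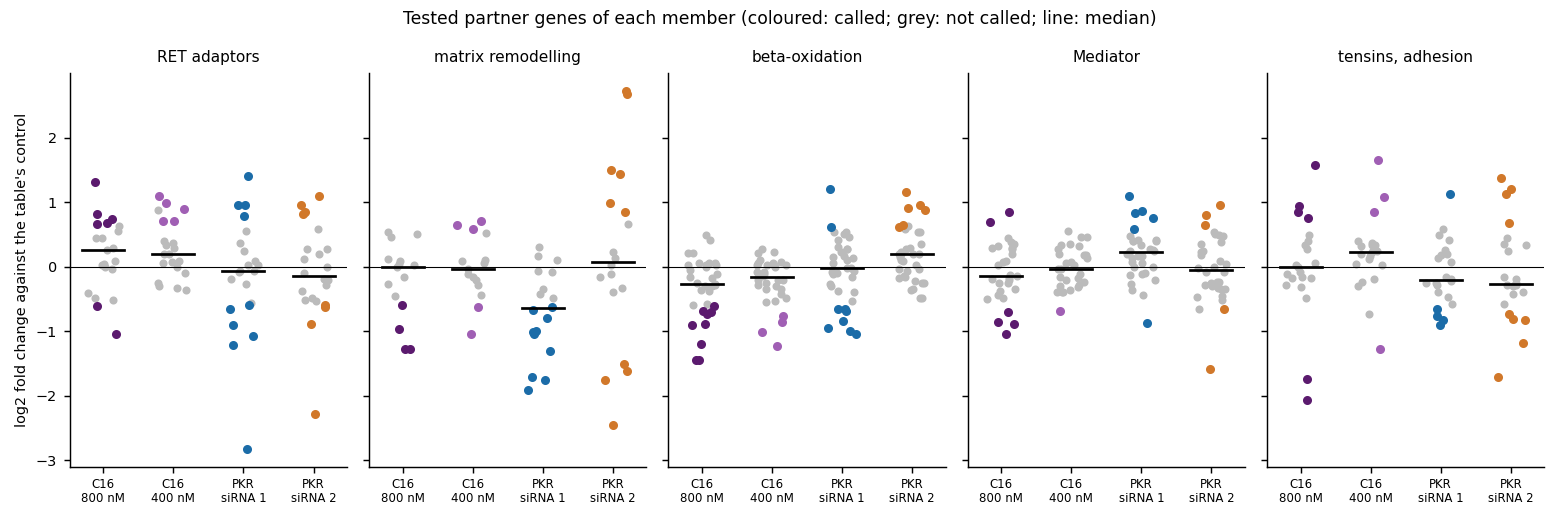
Log2 fold change against the control of the table (vertical axis) of the tested partner genes of each member, in 5 panels, for 800 nM C16, 400 nM C16, PKR siRNA 1 and PKR siRNA 2; coloured points were called, grey points were not, and the line is the median. The matrix remodelling genes have 10 called genes, all below 0, with PKR siRNA 1, and the beta-oxidation genes have 9 called genes, all below 0, at 800 nM C16.

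The chromosomal surroundings of each gene were examined within 500000 bases. At 800 nM none of the 6 tested neighbours of RET was called, and CSGALNACT2, the nearest, was at 0.39. Of the 2 tested neighbours of MXRA5, ARSD was called down at -2.25 (adjusted p = 2.26e-07) and PRKX, the nearer, was at 0.23. HUS1, the only tested neighbour of TNS3, was at 0.11. The windows of ECH1 and MED29 meet on chromosome 19 and together held 58 other genes, of which 31 were tested. There, 11 were called down and 2 up, or 35.5% down against 14.1% of all genes, and the median was -0.21 against 0.00. The largest falls were those of DYRK1B, a kinase gene (-1.63), the calcium channel gene RYR1 (-1.27), FAM98C (-1.27) and SARS2, the mitochondrial seryl-tRNA synthetase (-1.12), and the genes called up were PAPL (1.02) and NFKBIB (0.69). Within 250000 bases the windows differed, with 6 of 11 tested genes down around ECH1 (54.5%) and 2 of 12 around MED29 (16.7%, near the share of all genes). At 400 nM the 31 genes gave 2 up and 2 down, each 6.45%, where 7.08% and 5.45% of all genes were called. Among the siRNA libraries 31 genes of the region were tested, not all of them the same. PKR siRNA 1 gave 1 up (3.23% against 8.53% of all genes) and 3 down (9.68% against 12.6%). PKR siRNA 2 gave 4 up (12.9% against 10.8%) and 5 down (16.1% against 12.8%).

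The closest neighbours did not share the change. PAF1, whose start lies 127 bases from that of MED29, was at 1915, 1887 and 1893 normalized counts in DMSO, 1895, 1971 and 1896 at 400 nM and 1715, 1766 and 1691 at 800 nM. Its log2 fold change at 800 nM was -0.14 (adjusted p = 0.0278), under the fold threshold, beside -1.34 for MED29. With PKR siRNA 2 PAF1 fell by 0.61 (adjusted p = 2.94e-22), where MED29 was higher by 0.40. HNRNPL, the nearest tested neighbour of ECH1, was at -0.21 at 800 nM beside -1.74 for ECH1.

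**Figure D4:**
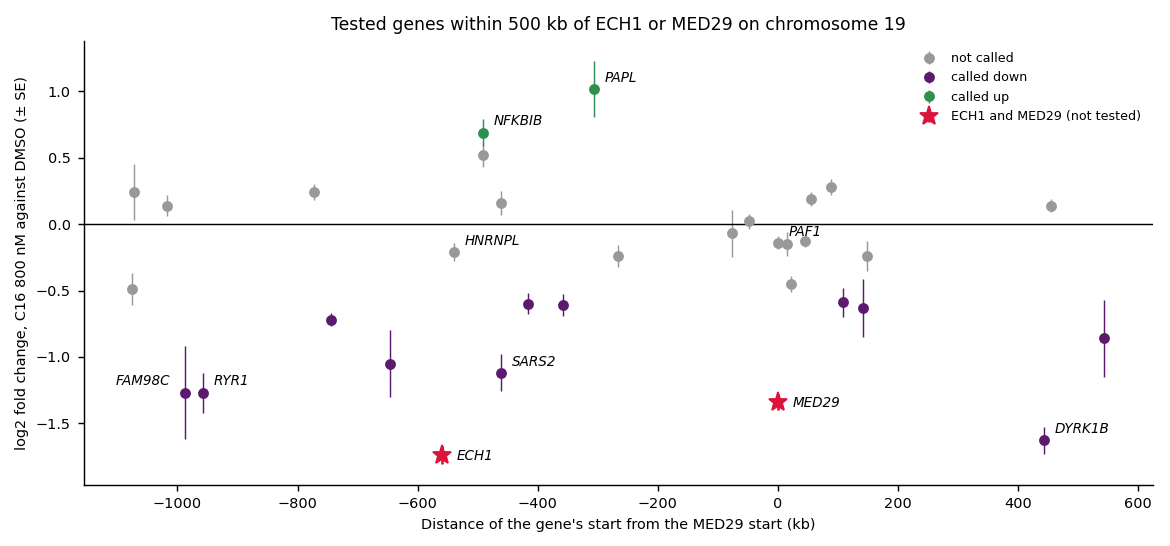
Log2 fold change at 800 nM C16 against DMSO with SE (vertical axis) of the 31 tested genes within 500000 bases of ECH1 or MED29, by the distance of their start from that of MED29 in kb (horizontal axis); stars are ECH1 and MED29, and colours mark the call. PAF1, next to MED29, is at -0.14, and 11 genes of the region are called down.

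Genes of most like pattern were sought over the 9821 genes whose mean reached 10 in both tables, by the root mean square (RMS) difference of their log2 values from control over all 18 libraries. Those of MED29 were IFITM3 at an RMS difference of 0.15, MVP at 0.16 and NME4 at 0.16, and those of TNS3 were NME4 at 0.19, HEXIM1 at 0.21 and IFT140 at 0.22. ECH1 was most like DKK1 at 0.18, MVP at 0.21 and C16orf58 at 0.21. NME4 and MVP thus appeared for 2 members each. MXRA5 was most like LXN at 0.40, TM7SF2 at 0.43 and PBXIP1 at 0.59. Each was lower at 800 nM by more than 3 on the log2 scale and higher with PKR siRNA 2. With PKR siRNA 1 they were at -2.21, -1.59 and -0.52, beside -1.74 for MXRA5. The search used these same libraries, those of C16 included, so shared directions are built in for every member. For RET the nearest genes were OLFML2A at 0.61, BCAM at 0.63 and SPARC at 0.64, which were at -2.52, -2.53 and -2.63 at 800 nM beside -3.34 for RET. RET had only 3 to 16 reads in each siRNA library, and its mean of 8.55 there was itself under the minimum. Sampling noise alone thus widens its difference from any gene, and whether RET had a closer counterpart cannot be told.

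**Figure D5:**
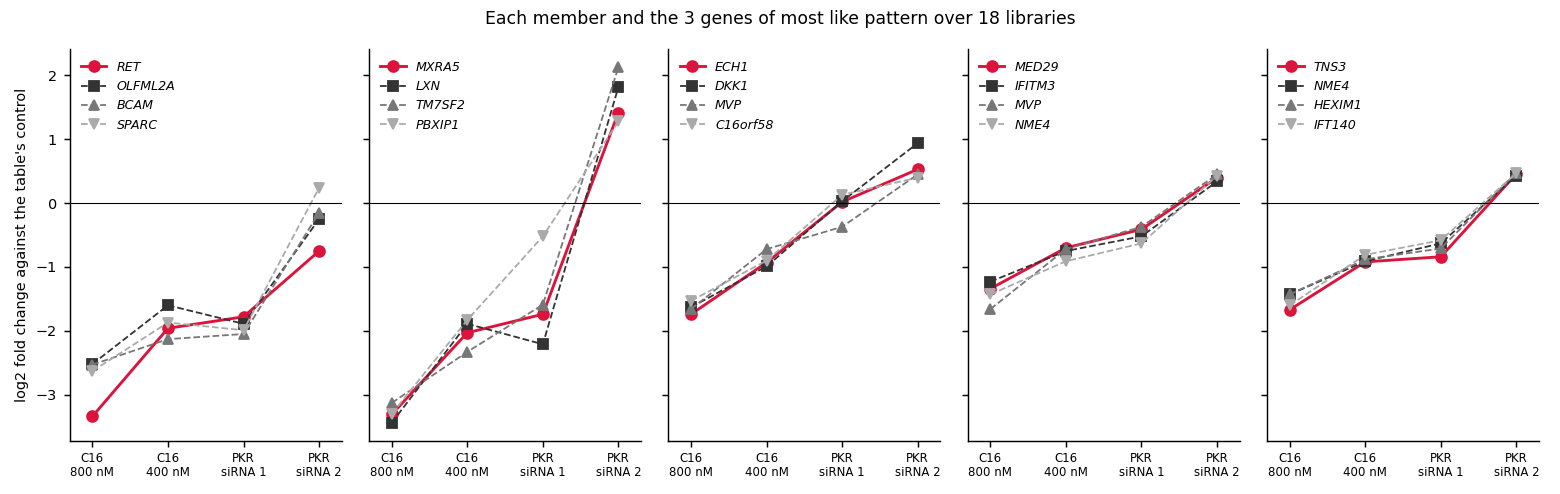
Log2 fold change against the control of the table (vertical axis) of each member (red) and of the 3 genes of most like pattern over 18 libraries, for 800 nM C16, 400 nM C16, PKR siRNA 1 and PKR siRNA 2; lines only join the points of a gene. For MED29 and TNS3 the 4 lines nearly coincide, and for RET the 3 other genes are at -2.52 to -2.63 at 800 nM, above RET at -3.34.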

How the data were processed

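Poly(A) RNA of PANC-1 cells was sequenced on a MiSeq after directional library preparation. Per the labels, the authors aligned reads to hg38 with TopHat, and per their methods they counted with featureCounts and normalized with TMM. The annotation, the strand setting and versions are not given in the sources used here. The deposited values are normalized counts, a signal equal to the read count divided by a factor per library, and dividing by the smallest step gave whole reads for 100.0% of values (within 0.01) in each library. In PKR siRNA 2 replicate 1 and C16 800 nM replicate 1 that step is within 1% of 1. Every column was assigned to a library by its name (0 left over), and the columns hold no comparison of the authors. All replicate pairs differed beyond sampling noise, but most by a small amount. The chi-square per degree of freedom over genes would be near 1 with sampling noise alone. It was 1.63 for DMSO replicates 1 and 3, and 1.37 for DMSO replicates 2 and 3. PKR siRNA 1 replicates 2 and 3 were at 1.33, and every other pair was between 1.03 and 1.23. Whether the libraries were separate cultures cannot be told from these values.

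Within each table, log2(normalized count + 1) of genes with a mean of at least 10 (10593 in the siRNA table, 9963 in the C16 table) was fitted over 9 libraries with limma 3.58.1 (R 4.3.3, intensity trend, Benjamini-Hochberg). The thresholds, an adjusted p under 0.05 and over 1.5-fold, follow the study. edgeR 4.0.16 and DESeq2 1.42.0 on the recovered reads were alternatives, and the fits were tested on simulated data. The members, and the lists of genes, markers and motifs, were chosen with earlier results of these data known, and the gene lists were written from general knowledge. From each list, at most 4 genes that passed were named per direction and comparison, by size. DECR1, ECI1, ECI2, PAF1 and the nearest tested neighbours were added for their role or position. MXRA7 and MMP14, and further values of MMP15, KANK2 and ITGB3, were added after the values were seen. Of the C16 effects on the members no p is given. siRNA sequences and proteins are not used here.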

Additional observations from a re-analysis of the deposited data

Results flagged for a closer look

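The 2 siRNAs against PKR had effects on 3 of the members that differed from each other by the direct comparison of PKR siRNA 2 with PKR siRNA 1 in limma, past both thresholds. For MXRA5 the log2 difference was 3.16, from -1.74 and 1.42 against control (adjusted p = 1.67e-22). For TNS3 it was 1.31, from -0.84 and 0.46 (adjusted p = 6.14e-36), and for MED29 it was 0.81, from -0.41 and 0.40 (adjusted p = 3.29e-27). Each gene was higher in 3 of 3 PKR siRNA 2 libraries than in any PKR siRNA 1 library. The groups of 3 libraries were too small to be searched for outlying libraries.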

How the results depend on the processing

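Of the member values in the siRNA table, 221 of 222 recomputed values kept their direction and side of the thresholds, or moved by less than the spread between libraries, and 224 of 225 did among the C16 values. The exceptions came with a pseudocount of 5, which moved RET with PKR siRNA 1 to -1.17 and MXRA5 at 800 nM to -2.97, by its construction closer to 0. With a minimum mean of 30 RET could not be tested in the siRNA table. ECH1 with PKR siRNA 1, not called, went to -0.02 when a library was left out. RET between the siRNAs gave an adjusted p of 0.0219 in edgeR and 0.0765 in DESeq2, against 0.185 in limma without a minimum. For RET with PKR siRNA 1 against control it was 7.61e-05 in edgeR and 0.00508 in DESeq2, against 0.0437 in that limma fit. With PKR siRNA 2 against control it was 0.103 in edgeR and 0.310 in DESeq2, against 0.419 in limma.

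Of 180 recomputed counts of called genes 171 stayed within 1.5 times. With no filter, 400 nM gave 420 up and 231 down (705 and 543 in the fit as reported), and 800 against 400 nM gave 26 up and 98 down (113 and 394). A minimum mean of 30, which tests fewer genes, gave 296 down at 400 nM, 800 down at 800 nM (1403) and 231 down between the doses. DESeq2 gave 51 up and 137 down between the doses. The cause of the other shifts was not tested. edgeR on the recovered reads called 1229 up and 1425 down at 800 nM. Of the list counts, recomputed in an alternative chosen after seeing the data, 55 of 720 moved, among them beta-oxidation genes down with PKR siRNA 1 (7, but 3 with no filter). The narrower window of 250000 bases left 8 of 23 genes down around ECH1 and MED29 at 800 nM, or 34.8% against 14.1% of all genes.

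Replicate numbers did not pair the libraries (correlations of deviations from -0.05 to 0.03 for the same number, -0.05 to 0.05 for other numbers). With the replicate number as a block, 1158 genes were called up and 1396 down at 800 nM, 905 up and 1332 down for PKR siRNA 1, 1136 up and 1353 down for PKR siRNA 2, and no call of a member changed. Depth limits RET in the siRNA table above all.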
